A study of Mus musculus with 16 samples.

Results

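The genes described here are 10 promoters and inhibitors of mineral deposition, taken from a fixed list by matching symbols to the Ensembl identifiers of the count files: Alpl, Phospho1, Enpp1, Abcc6, Nt5e, Spp1, Ibsp, Dmp1, Mgp and Sp7. All 10 were found among the 25719 genes in each file, each with 1 identifier. They were followed in RNA of mouse tail tendon fascicles, the thin strands of tendon drawn from the tail, in 8 wild type (WT) and 8 knockout (KO) libraries. The KO carries floxed Vhl alleles and the ScxCre driver (ScxCre;Vhlf/f), in which Cre is made in cells of the Scx (tendon) lineage. The labels give no age, sex or strain, and do not say whether WT mice carried Cre or floxed alleles. They describe each sample as all cells of the tissue, which include cells outside the Scx lineage, and in such bulk RNA fewer cells of a type and less RNA per cell cannot be told apart.

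Mineral forms when phosphate is available and pyrophosphate, its strongest small inhibitor, is removed. ENPP1 makes pyrophosphate from ATP outside the cell, ABCC6 supports the release of that ATP, and CD73 (Nt5e) turns the remaining AMP into adenosine and phosphate. Tissue-nonspecific alkaline phosphatase (Alpl) destroys pyrophosphate, and PHOSPHO1 frees phosphate inside matrix vesicles. Matrix Gla protein (Mgp) and osteopontin (Spp1) hold back crystal growth, whereas bone sialoprotein (Ibsp) and dentin matrix protein (Dmp1) belong to mineralised tissues and osterix (Sp7) is a transcription factor that bone-forming cells require. Tendons normally stay free of mineral and can calcify in disease. VHL marks hypoxia-inducible factors (HIF) for destruction, and HIF dimers bind short DNA motifs with the core ACGTG or GCGTG.

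The listed genes fell into a measurable set and a scarce set. Enpp1, Nt5e and the counts assigned to Phospho1, which cannot be told apart from those of the overlapping gene Abi3, rose in the KO, Abcc6 and Mgp fell, and Spp1 did not pass the test. Alpl, Ibsp, Sp7 and Dmp1 were near or under the floor of detection in most libraries and were too scarce for the test. Of the 6 tested genes 5 were called, at a background of 48.3% of all 14803 tested genes. Of the 6, 3 were higher and 2 lower, at backgrounds of 25.6% and 22.7%. The list was chosen with earlier results of these data known, so these counts are a description only. The libraries of the 2 genotypes did not overlap for 3 of the 6, at a background of 19.4%: Phospho1 and Nt5e were higher (background 10.8%) and Abcc6 was lower (8.61%). The median log2 fold change was 0.05 over the 6 genes, midway between Enpp1 (0.48) and Spp1 (-0.38), and 0.02 over all tested genes. Because the list is short and mixes promoters and inhibitors, this median gives no direction for the list as a whole. Levels are CPM (counts relative to the library's total) on library sizes scaled by trimmed mean of M-values (TMM), and a gene is called at a Benjamini-Hochberg adjusted p under 0.05 in the edgeR quasi-likelihood test across all tested genes.

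Upstream sequences are shown for Phospho1, Nt5e, Enpp1 and Dmp1, because these are the windows of the list in which a HIF core was found. Nt5e and Enpp1 rose, and Dmp1 counts came from the KO alone. The rise in counts assigned to Phospho1 cannot be told apart from a rise of the overlapping gene Abi3. RefSeq's promoter table (GRCm38.p6) held 7 of the 10 genes. It held no window for Abcc6, Mgp and Sp7, so neither listed gene that fell could be searched for the core. Each run is the 250 bases before the annotated start, 5′ to 3′ on the gene's strand, and capitals mark every ACGTG or GCGTG on either strand (on the other strand they read CACGT or CACGC).
Phospho1, chr11:95824250-95824499, plus strand: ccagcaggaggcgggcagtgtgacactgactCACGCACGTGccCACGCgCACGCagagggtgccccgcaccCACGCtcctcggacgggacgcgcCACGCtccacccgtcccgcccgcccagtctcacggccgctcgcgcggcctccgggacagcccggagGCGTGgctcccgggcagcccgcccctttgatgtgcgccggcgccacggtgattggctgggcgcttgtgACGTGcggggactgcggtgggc
Nt5e, chr9:88327359-88327608, plus strand: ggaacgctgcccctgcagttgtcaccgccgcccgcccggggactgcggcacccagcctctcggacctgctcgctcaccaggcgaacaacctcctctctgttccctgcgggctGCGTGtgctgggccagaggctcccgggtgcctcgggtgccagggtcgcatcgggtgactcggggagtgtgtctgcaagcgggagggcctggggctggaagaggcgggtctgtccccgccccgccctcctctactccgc
Enpp1, chr10:24712160-24712409, minus strand: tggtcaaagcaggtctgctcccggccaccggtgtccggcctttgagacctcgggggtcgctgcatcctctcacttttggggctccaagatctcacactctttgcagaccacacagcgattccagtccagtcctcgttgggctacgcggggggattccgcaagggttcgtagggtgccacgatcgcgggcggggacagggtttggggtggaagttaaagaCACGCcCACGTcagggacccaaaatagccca
Dmp1, chr5:104197325-104197574, plus strand: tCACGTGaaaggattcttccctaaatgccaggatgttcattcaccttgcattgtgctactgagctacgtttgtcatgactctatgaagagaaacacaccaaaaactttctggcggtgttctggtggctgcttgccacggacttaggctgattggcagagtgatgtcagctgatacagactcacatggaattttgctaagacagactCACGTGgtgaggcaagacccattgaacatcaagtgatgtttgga
Counting overlapping matches, the Phospho1 window held 9 cores, Enpp1 2, Nt5e 1 and the Dmp1 window 4, the latter as 2 copies of the palindrome CACGTG, which reads the same on both strands and was present also in the Phospho1 window. A core was present in 38.6% of all 32851 windows of this length in the table, and CACGTG in 6.02%. The windows held for the listed genes had a core about as often as all windows, so its presence does not set them apart. No window of Alpl, Spp1 or Ibsp, nor that of a second Dmp1 start, held the letters of the core. A match describes these letters and shows no binding, and the part of HIF in the levels was not tested.

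Libraries held between 10488355 and 18753254 counts in the KO and between 10792900 and 16379401 in the WT, and 3 counts, taken as the floor, corresponded to between 0.145 and 0.336 CPM. Vhl ran from 7.51 to 10.9 CPM in the KO and from 14.1 to 25.8 CPM in the WT, so each library followed its label. The mean level of Y-linked genes was 5.61 to 5.72 log2 CPM in KO libraries 1 and 6 and WT libraries 7 and 8. In the others it was -2.73 to -2.63, so both groups appeared to hold both sexes. Tendon identity was checked on 9 tenocyte markers: all were tested, and their summed level ran from 77587 to 181187 CPM in the KO and from 130878 to 380895 CPM in the WT. Of these markers 6 were lower and 1 higher in the KO, at backgrounds of 22.7% and 25.6%. Their median log2 fold change was -0.91, as against -0.90 for Mgp. The part of tendon cell RNA in the genes that fell was not tested. Skeletal muscle RNA was uneven, with summed levels of 10 markers from 140 to 7649 CPM in the KO and from 53.0 to 3474 CPM in the WT. KO libraries 6, 7 and 8 and WT library 5 were highest for it. Endothelial markers (8 genes) ran from 37.6 to 470 CPM in the KO and from 30.3 to 49.5 CPM in the WT, and mural cell markers (7 genes) from 236 to 1298 CPM and from 208 to 284 CPM. Bop1, whose gene spans Scx, exceeded 100 CPM in KO libraries 5, 6 and 8 and WT library 8. Results without such libraries are given for some genes.

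Phospho1 (ENSMUSG00000050860, chromosome 11), the phosphatase of matrix vesicles, showed the largest rise among the 6 tested genes. Its lowest, median and highest levels were 8.06, 10.3 and 15.3 CPM in the WT and 47.0, 61.4 and 88.6 CPM in the KO. Every KO library lay above every WT library. The mean rose from 11.2 ± 2.44 to 65.6 ± 12.5 CPM (SD, n = 8), for a log2 fold change of 2.56 (standard error 0.138, edgeR adjusted p = 1.77e-11). These counts are uncertain as a measure of Phospho1, because its exons overlap those of Abi3 on the opposite strand over 1708 of 2029 bases and those of Zfp652 on the same strand over 1818 bases in GENCODE M21, and it is not stated whether counting used strand. Abi3, which encodes an adaptor of actin regulation known from myeloid cells, had nearly the same counts in each KO library: Phospho1 over Abi3 ran from 0.950 to 1.03, with sums of 8019 and 8036. In the WT the ratio ran from 0.791 to 0.940, with sums of 1018 and 1151. Abi3 rose by 2.39 on the log2 scale (SE 0.123, edgeR adjusted p = 6.91e-12), so a rise of Phospho1 cannot be told apart here from a rise of Abi3. Zfp652, a zinc finger gene, ran from 157 to 193 CPM in the WT and from 192 to 220 CPM in the KO (log2 fold change 0.23, SE 0.0560, adjusted p = 0.00206). Macrophage markers, given because Abi3 is known from myeloid cells, summed to between 743 and 1131 CPM in the KO and between 712 and 1049 CPM in the WT, and 2 of the 7 were called, at a background of 48.3%, both higher (Adgre1 by 0.41 and Cd163 by 0.38 on the log2 scale). Their part in the rise was not tested.

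**Figure D1:**
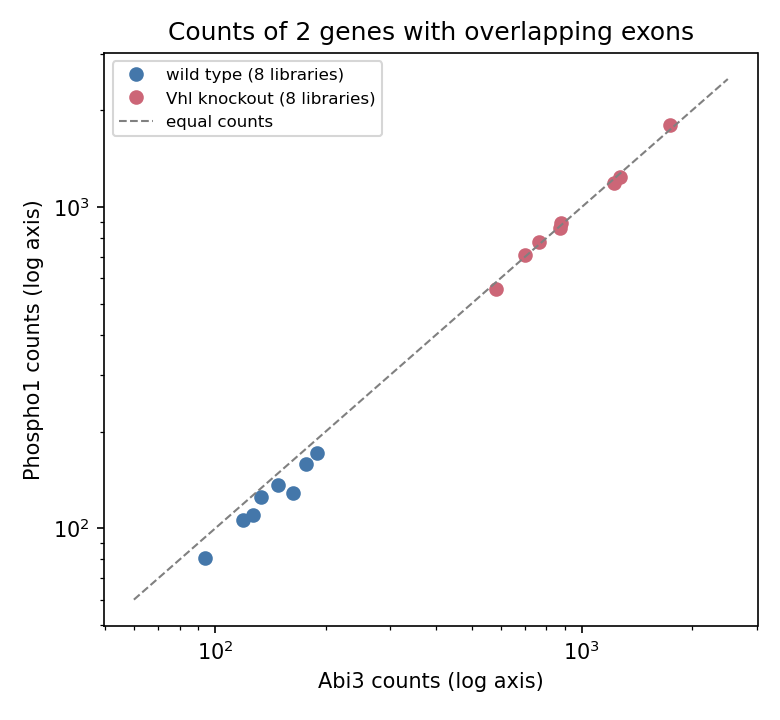
Phospho1 counts (y, log axis) against Abi3 counts (x, log axis), with 1 point per library and a dashed line of equal counts. All 16 libraries lie close to the line, the KO libraries between 0.950 and 1.03 Phospho1 counts per Abi3 count, and the WT libraries lie lower on both axes.

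Nt5e (ENSMUSG00000032420, chromosome 9), which encodes the AMP-cleaving ectonucleotidase CD73 and is a known hypoxia-responsive gene, rose without overlap. Its lowest, median and highest levels were 38.0, 57.3 and 67.3 CPM in the WT and 78.7, 105 and 128 CPM in the KO. The 3 lowest KO libraries were 6, 7 and 8, at 89.7, 85.01 and 78.7 CPM, which are also those richest in muscle and endothelial markers. The mean rose from 56.2 ± 9.61 to 104 ± 18.4 CPM (SD, n = 8; log2 fold change 0.89, SE 0.119, edgeR adjusted p = 4.76e-06). The log2 fold change was as large without KO libraries 6 to 8 and WT library 5, at 1.03.

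Enpp1 (ENSMUSG00000037370, chromosome 10), the enzyme that makes extracellular pyrophosphate, rose by less. Its lowest, median and highest levels were 59.9, 68.9 and 88.8 CPM in the WT and 84.7, 96.7 and 132 CPM in the KO. Only the highest WT library (6, at 88.8 CPM) reached into the KO range, above KO libraries 5 and 8 at 84.7 and 87.6 CPM. The mean went from 71.2 ± 9.90 to 99.4 ± 14.4 CPM (SD, n = 8; log2 fold change 0.48, SE 0.0929, edgeR adjusted p = 2.47e-04). KO library 6 stood above the other KO libraries, and without it the log2 fold change was 0.41. Without the 4 libraries richest in muscle the log2 fold change was 0.38 (edgeR adjusted p = 0.00231). On total counts without TMM the value was 0.80, where the median log2 fold change over tested genes was 0.32 in place of 0.02.

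Abcc6 (ENSMUSG00000030834, chromosome 7), the transporter whose loss causes the calcifying disorder pseudoxanthoma elasticum, was lower in every KO library than in any WT library. Its lowest, median and highest levels were 6.34, 8.09 and 10.05 CPM in the WT and 0.890, 1.50 and 1.97 CPM in the KO. No KO library came near the WT range. The mean fell from 8.04 ± 1.26 to 1.42 ± 0.398 CPM (SD, n = 8; log2 fold change -2.51, SE 0.165, edgeR adjusted p = 2.30e-10). Over all alternatives the log2 fold change lay between -2.59 and -2.21. The log2 ratio of Enpp1 to Abcc6, which no library scaling can alter, was 3.15 ± 0.235 in the WT and 6.17 ± 0.499 in the KO (SD, n = 8). Its ranges, 2.77 to 3.44 and 5.61 to 7.02, did not overlap, which already follows from the ranges of the 2 genes. This ratio was not among those planned. The 2 genes, which act in sequence in the supply of pyrophosphate, moved in opposite directions.

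Mgp (ENSMUSG00000030218, chromosome 6), a vitamin K-dependent inhibitor of calcification, was the most abundant of the 10 genes and fell. Its lowest, median and highest levels were 289, 422 and 620 CPM in the WT and 157, 229 and 416 CPM in the KO. The groups overlapped through KO libraries 6 (416 CPM) and 7 (294 CPM) and the lower WT libraries. The mean fell from 445 ± 117 to 239 ± 86.5 CPM (SD, n = 8; log2 fold change -0.90, SE 0.205, edgeR adjusted p = 0.00140). Mural cells are known to express Mgp, and the 3 KO libraries with the highest mural sums were 6, 7 and 8 (987, 1298 and 1076 CPM), of which library 8 had 233 CPM of Mgp, inside the range of the other KO libraries. The part of mural cells was not tested. Without the 4 libraries richest in muscle the log2 fold change was -1.23, and on total counts it was -0.57 (adjusted p = 0.0184).

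Spp1 (ENSMUSG00000029304, chromosome 5), which encodes osteopontin, varied within the genotypes more than any other tested gene of the list. Its lowest, median and highest levels were 46.1, 80.7 and 142 CPM in the WT and 27.8, 46.2 and 148 CPM in the KO. The KO libraries formed a high trio, 147.5 CPM in library 4, 110 CPM in library 6 and 86.2 CPM in library 5, and 5 libraries between 27.8 and 47.2 CPM. Means were 86.5 ± 33.0 CPM in the WT and 66.4 ± 43.7 CPM in the KO (SD, n = 8; log2 fold change -0.38, SE 0.369, edgeR adjusted p = 0.418). The coefficient of variation was 65.8% in the KO and 38.2% in the WT, against 13.9% to 36.2% in either genotype for the other 5 tested genes. Exons of Spp1 overlap those of the predicted gene Gm42793 over 309 of 1648 bases, and Gm42793 followed Spp1 at lower levels.

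Within each genotype Spp1 was high where the sum of a list of cartilage genes was low. The pattern was noticed after the values were seen and is given here as a description. The list sums 8 cartilage genes, of which Col11a2, a chain of type XI collagen, had the highest level. In the WT it made up most of the sum, at 787 to 1673 CPM, and in the KO its mean was 147 ± 87.3 CPM (SD, n = 8). Next came Col2a1, with means of 84.0 CPM in the WT and 53.9 CPM in the KO. Col9a1, Matn1 and Ihh had group means of at most 0.146 CPM. The sum was not tested as a measure of cartilage cells. In the KO the 3 libraries highest for Spp1 (4, 6 and 5) had the 3 lowest sums, 137, 113 and 149.7 CPM, where the other 5 had 184 to 378 CPM. In the WT the 3 libraries highest for Spp1 (3, 8 and 7, at 142, 121 and 95.9 CPM) also had the 3 lowest sums, 834, 1027 and 1045 CPM, where the other 5 had 1225 to 1806 CPM. The sums themselves did not overlap between the genotypes, while Spp1 did. Macrophages and osteoclasts are other cells known to make osteopontin. In the KO, libraries 4, 6 and 5 also had the 3 highest macrophage sums, 1070, 989 and 1131 CPM, where the other 5 had 743 to 986 CPM. In the WT, library 3, the highest for Spp1, had the lowest macrophage sum, 712 CPM, whereas libraries 7 and 8 had the highest, 1049 CPM each. Osteoclast sums in KO libraries 4, 6 and 5 (216, 220 and 246 CPM) lay inside the range of the other 5 (166 to 259 CPM). In the WT, library 8 had the highest osteoclast sum, 445 CPM, and library 3 the lowest, 251 CPM. The part of these cells in the Spp1 levels was not tested.

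**Figure D2:**
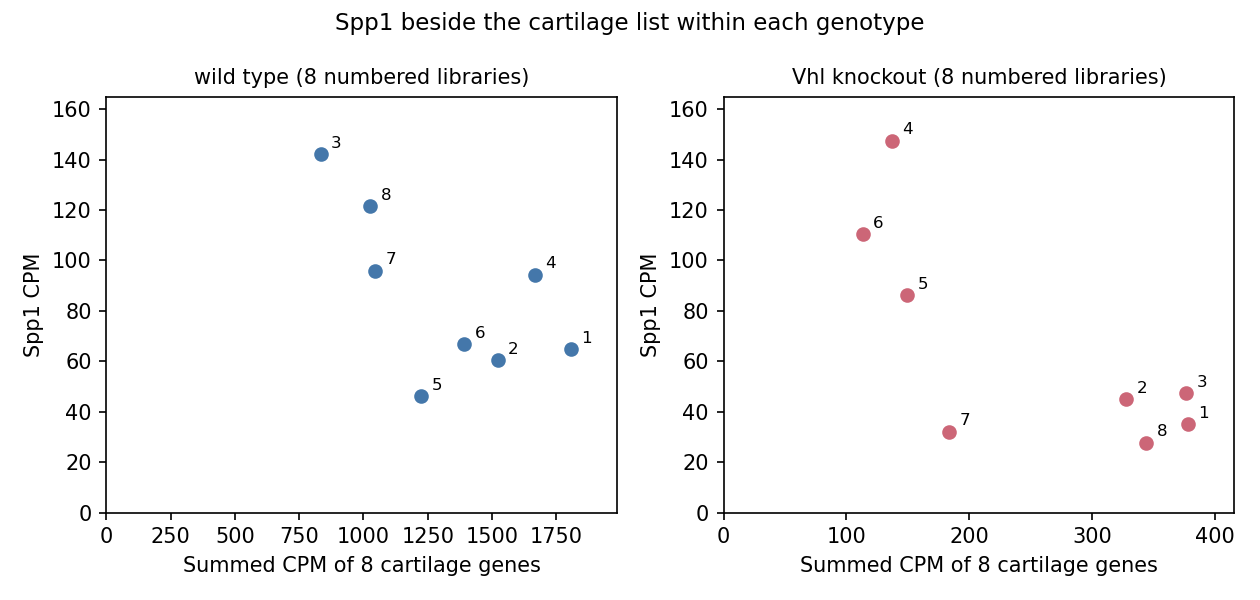
Spp1 CPM (y) against the summed CPM of 8 cartilage genes (x) in WT (left) and KO (right), each point a numbered library; the x scales differ between the panels. The 3 points highest on the y axis have the lowest x values in each panel.

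**Figure D3:**
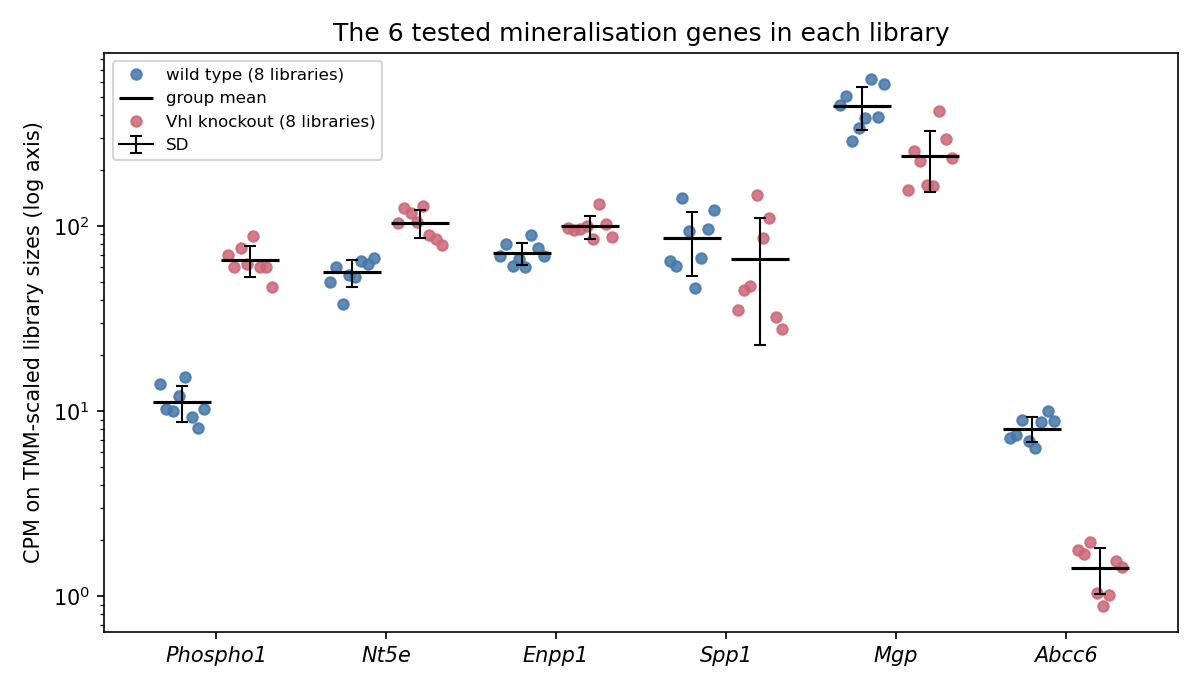
CPM on a log axis for the 6 tested genes, with 8 WT and 8 KO libraries as points, group means as lines and SD as bars. Phospho1 and Nt5e are higher and Abcc6 is lower in the KO without overlap, Enpp1 and Mgp overlap in a few libraries, and the Spp1 points of the 2 genotypes span a common range. The counts assigned to Phospho1 cannot be told apart from those of Abi3.

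Alpl (ENSMUSG00000028766, chromosome 4), the phosphatase on which normal bone mineral depends, was scarce in this tissue. WT libraries 1 to 8 held 4, 6, 8, 7, 4, 1, 2 and 3 counts, and KO libraries 1 to 8 held 1, 1, 0, 1, 0, 6, 6 and 2. The sums were 35 and 17 counts, and only 5 WT and 2 KO libraries exceeded the floor of 3. The gene did not pass the expression filter. In the fit without a filter its log2 fold change was -1.40 (SE 0.504, edgeR adjusted p = 0.0315), which rests on these counts alone. Of the 17 KO counts, 14 lay in libraries 6, 7 and 8, the richest in muscle and endothelial markers, and 3 in the other 5 libraries. The part of such cells was not tested.

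Sp7 (ENSMUSG00000060284, chromosome 15) and Ibsp (ENSMUSG00000029306, chromosome 5) were at the limit of detection. Sp7 had 5 counts over the WT and 11 over the KO libraries, with at most 2 and 4 in a library. Ibsp had 3 and 12 counts, of which KO library 4 held 7. Neither passed the threshold in the fit without a filter (edgeR adjusted p = 0.527 for Sp7 and 0.262 for Ibsp), and at this depth a difference was not detectable. Some markers of osteoblasts and osteocytes were also at this limit, and others were counted in every library. Over all 16 libraries Bglap (osteocalcin) held 14 counts in the KO and 10 in the WT, Sost (sclerostin) 2 and 5, and Fgf23, a phosphate-regulating hormone, 2 and 0. In contrast, Ifitm5 had means of 2.40 CPM in the KO and 2.04 CPM in the WT, and Phex 0.832 and 1.42 CPM. Gm45717 shares 227 of the 765 exon bases of Ifitm5. The summed level of the 9 bone cell markers ran from 33.7 to 39.6 CPM in the KO and from 31.4 to 48.6 CPM in the WT, and most of it came from the parathyroid hormone receptor gene Pth1r (29.5 ± 2.55 and 34.6 ± 6.47 CPM; SD, n = 8), whose exons overlap those of Myl3.

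Dmp1 (ENSMUSG00000029307, chromosome 5), a phosphoprotein of osteocytes and dentin, had counts in the KO alone. KO libraries 1 to 8 held 3, 0, 0, 4, 4, 14, 18 and 11 counts, and all 8 WT libraries held 0. Against a floor of 3 counts over the whole WT group, the KO level (54 counts) was at least 13.7-fold higher. Of the 54 counts, 43 (79.6%) lay in KO libraries 6, 7 and 8, which had the highest muscle (6277 to 7649 CPM) and endothelial sums (302 to 470 CPM) of the KO. WT library 5, with a muscle sum of 3474 CPM but an endothelial sum of only 49.5 CPM, held no Dmp1 count. The part of muscle and vessel cells was not tested. Over the other 5 KO libraries 11 counts remained, at least 4.92-fold above the same floor. In the fit without a filter the gene passed the threshold (edgeR adjusted p = 0.00443). Its level stayed under 1 CPM in every library.

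**Figure D4:**
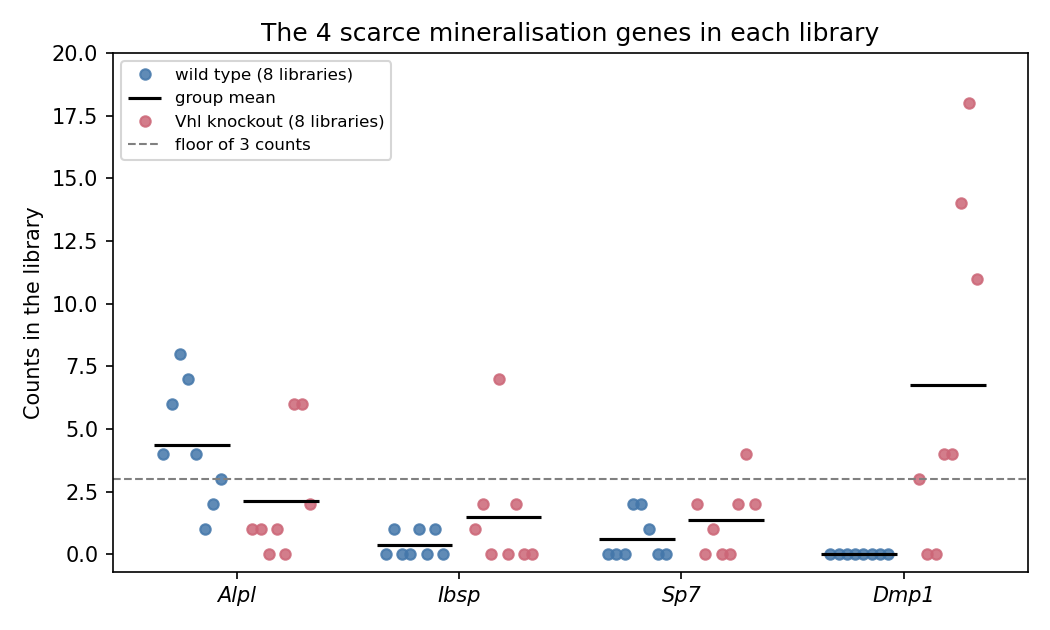
Counts per library (y) of the 4 genes that did not pass the expression filter, with WT and KO libraries as points, group means as lines and a dashed line at the floor of 3 counts. Dmp1 reaches 11 to 18 counts in 3 KO libraries and is 0 in all WT libraries, and Alpl, Ibsp and Sp7 stay at or under 8 counts.

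Dmp1, Ibsp and Spp1 are neighbours on chromosome 5, together with Dspp and Mepe, in the cluster of small integrin-binding phosphoproteins. Their levels were very unlike one another. Spp1 had 8049 counts over the WT libraries, Ibsp 3, and Dmp1, Dspp and Mepe none. In the KO, Dspp (dentin sialophosphoprotein) held 8 counts in 5 libraries and Mepe (matrix extracellular phosphoglycoprotein) 1 count in 1 library.

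Levels were put on 1 scale per length by dividing CPM by the summed exon length of GENCODE M21. In the WT the order was Mgp (375 ± 98.5 CPM per kilobase), Spp1 (52.5 ± 20.05), Enpp1 (6.94 ± 0.965), Nt5e (6.53 ± 1.12), Phospho1 (5.50 ± 1.20), Abcc6 (1.41 ± 0.221) and Alpl (0.0921 ± 0.0429; SD, n = 8), followed by Ibsp, Sp7 and Dmp1. Enpp1, Nt5e and Phospho1 lay within their spread of one another. In the KO, Phospho1 followed Mgp and Spp1, at 32.3 ± 6.18 CPM per kilobase, within the spread of Spp1 at 40.3 ± 26.5. The counts assigned to Phospho1 cannot be told apart from those of Abi3. Nt5e (12.1 ± 2.14) and Enpp1 (9.69 ± 1.40) lay within 1 SD of each other's range, and Abcc6 was at 0.249 ± 0.0696. Mgp alone made up 83.7% of the summed level of the 10 genes in the WT and 67.9% in the KO.

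The genes whose levels followed each listed gene most closely were sought over the 16 libraries after removal of the genotype means. The measure was Pearson's r of log2 CPM over 10219 or 10220 genes, given as a description of libraries that share depth and composition. The closest gene was the overlapping gene in 2 cases, Abi3 for Phospho1 (r = 0.982) and Gm42793 for Spp1 (0.974). Enpp1 was followed most closely by Ankh, listed under its older symbol Ank, which encodes the protein that exports ATP and pyrophosphate (0.810), and by the growth hormone receptor gene Ghr (0.800). Nt5e was followed by Tgfbi (0.909), a matrix protein gene, Ptgis (0.896), which encodes prostacyclin synthase, and Fam114a2 (0.894). Abcc6 was followed by Khnyn (0.885), Sh3d19 (0.876) and Pml (0.815), and Mgp by Foxo4 (0.837), Cd99l2 (0.835) and Coq10a (0.833). Vapa and Siah2 (0.859 each) came next for Phospho1, Vipas39 (0.794) for Enpp1, and Tnfaip8l3 (0.876) and Kif3b (0.868) for Spp1. Between listed genes the closest pair was Enpp1 and Mgp (0.715).

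The wider set of mineral genes, 36 others in 5 groups, had 27 tested genes, of which 9 rose and 8 fell, where the background was 48.3% called, 25.6% higher and 22.7% lower. None of the group counts that follow was tested against these shares, and the groups were chosen with earlier results of these data known. Their median log2 fold change was 0.21, against 0.02 for all tested genes.

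Among 9 genes that handle phosphate, pyrophosphate and nucleotides, 3 rose and 1 fell, a share near the background of 48.3%, with a median log2 fold change of 0.26. The phosphate importer Slc20a1 rose from 26.1 ± 4.41 to 41.3 ± 8.82 CPM (SD, n = 8; log2 fold change 0.66, SE 0.126, edgeR adjusted p = 2.42e-04; 0.43 in a fit that included the muscle score), and 2 predicted or non-coding transcripts overlap its exons on the other strand. Enpp3, a relative of Enpp1, rose from 0.780 ± 0.216 to 2.22 ± 1.02 CPM (1.50, SE 0.292, adjusted p = 2.68e-04). Without the 4 libraries richest in muscle the value for Enpp3 was 1.06 (edgeR adjusted p = 0.0120). Entpd1, the ATP-cleaving enzyme CD39 known from endothelial and immune cells, rose from 19.2 ± 1.49 to 30.3 ± 13.1 CPM (0.67, SE 0.199, adjusted p = 0.0103). Its call was lost without the 4 libraries richest in muscle, at 0.20 (adjusted p = 0.108), and in a fit that included the muscle score, at 0.35 (0.172). Ankh fell from 118 ± 11.2 to 99.2 ± 12.5 CPM (-0.25, SE 0.0785, adjusted p = 0.0126), and its sign turned on total counts, to 0.06 (0.545). The other phosphate importer Slc20a2 differed by 0.23 (adjusted p = 0.0511). It passed the threshold on total counts, at 0.54 (2.52e-04), and without any 1 of KO libraries 1, 2 and 3 and WT library 5 (0.0154 to 0.0468), and it was 0.08 (0.450) without the libraries richest in muscle.

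Transcription factors of bone-forming cells were higher in most cases: 5 of 6 tested factors rose, at a background of 25.6%, and none fell, with a median log2 fold change of 1.03. Dlx3 rose from 0.918 ± 0.480 to 10.5 ± 3.03 CPM (SD, n = 8; log2 fold change 3.51, SE 0.256, edgeR adjusted p = 1.23e-09). Runx2, the factor that acts ahead of osterix in the bone lineage, rose from 4.29 ± 1.26 to 13.1 ± 4.03 CPM (1.61, SE 0.1997, adjusted p = 1.78e-06). Neither gene overlapped between the genotypes, and the antisense gene Runx2os1 shares 519 of the 8837 exon bases of Runx2. Msx1 rose by 1.26 (SE 0.244, adjusted p = 2.63e-04) and Dlx5 by 0.79 (SE 0.187, adjusted p = 0.00161). Over all alternatives the lowest log2 fold change was 1.26 for Runx2 and 0.86 for Msx1. Msx2, with 11 KO and 2 WT counts, was not tested. The rise of Runx2 stood beside osterix and osteocalcin counts at the limit of detection in the same libraries. Chondrocytes and vessel cells are known to express some of these factors. Of 5 tested cartilage markers 3 fell and 1 rose, at backgrounds of 22.7% and 25.6% (median log2 fold change -0.64). Matn3 fell by 4.02, Col11a2 by 3.03 and Col10a1 by 0.38, and Hapln1 rose by 3.32 on the log2 scale. At the same backgrounds, 5 of 7 tested endothelial markers rose and none fell (median log2 fold change 3.41). Of 6 tested mural markers 4 rose and 1 fell (median 3.57). The part of such cells was not tested.

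Of 8 proteins of mineralised matrix, 4 were tested, none rose and 2 fell, a share near the background of 48.3% called. Sparc (osteonectin), a collagen-binding protein abundant in bone and tendon, fell from 35614 ± 7054 to 10500 ± 2048 CPM (SD, n = 8; log2 fold change -1.76, SE 0.153, edgeR adjusted p = 1.21e-08). Col10a1, the collagen of hypertrophic cartilage, went from 6.06 ± 1.06 to 4.66 ± 0.917 CPM (-0.38, SE 0.137, adjusted p = 0.0277), a call lost on total counts (adjusted p = 0.627) and without any 1 of 6 libraries (KO 2, 4 or 6, WT 1, 2 or 3; adjusted p between 0.0504 and 0.0592).

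Of 7 inhibitors and genes of vitamin K-dependent carboxylation, the modification that Mgp needs to act, 5 were tested, 1 rose and 3 fell, at backgrounds of 25.6% and 22.7%. Vkorc1, which recycles vitamin K, fell from 73.2 ± 13.5 to 38.9 ± 7.38 CPM (SD, n = 8; log2 fold change -0.91, SE 0.128, edgeR adjusted p = 8.68e-06; -0.60 on total counts), and Gm21974 shares 401 of its 840 exon bases. Gas6, another vitamin K-dependent protein, fell from 405 ± 33.2 to 291 ± 18.8 CPM (-0.48, SE 0.0658, adjusted p = 5.77e-06), or by -0.17 on total counts (0.0445). The carboxylase gene Ggcx differed by -0.06 (adjusted p = 0.705). Noggin (Nog), an antagonist of bone morphogenetic proteins, fell from 18.3 ± 4.33 to 6.16 ± 1.81 CPM (-1.58, SE 0.171, adjusted p = 2.89e-07). Osteoprotegerin (Tnfrsf11b), which blocks osteoclast formation, rose from 7.47 ± 1.06 to 17.5 ± 4.64 CPM (1.23, SE 0.149, adjusted p = 1.13e-06).

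Of 5 genes of osteocytes and phosphate regulation, 3 were tested, none rose and 2 fell, at a background of 22.7% lower. Fam20c, the kinase that phosphorylates osteopontin and its relatives, fell from 50.8 ± 6.29 to 20.4 ± 2.52 CPM (SD, n = 8; log2 fold change -1.31, SE 0.0874, edgeR adjusted p = 2.77e-10) without overlap. Phex, a peptidase whose loss causes phosphate wasting, went from 1.42 ± 0.517 to 0.832 ± 0.378 CPM (-0.75, SE 0.273, adjusted p = 0.0292), a call lost on total counts (0.164), in a fit that included the muscle score (0.0837), without the 4 libraries high in Bop1 (0.124) and without any 1 of KO libraries 3, 5 and 8 and WT libraries 6 and 7 (adjusted p between 0.0520 and 0.0676).

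**Figure D5:**
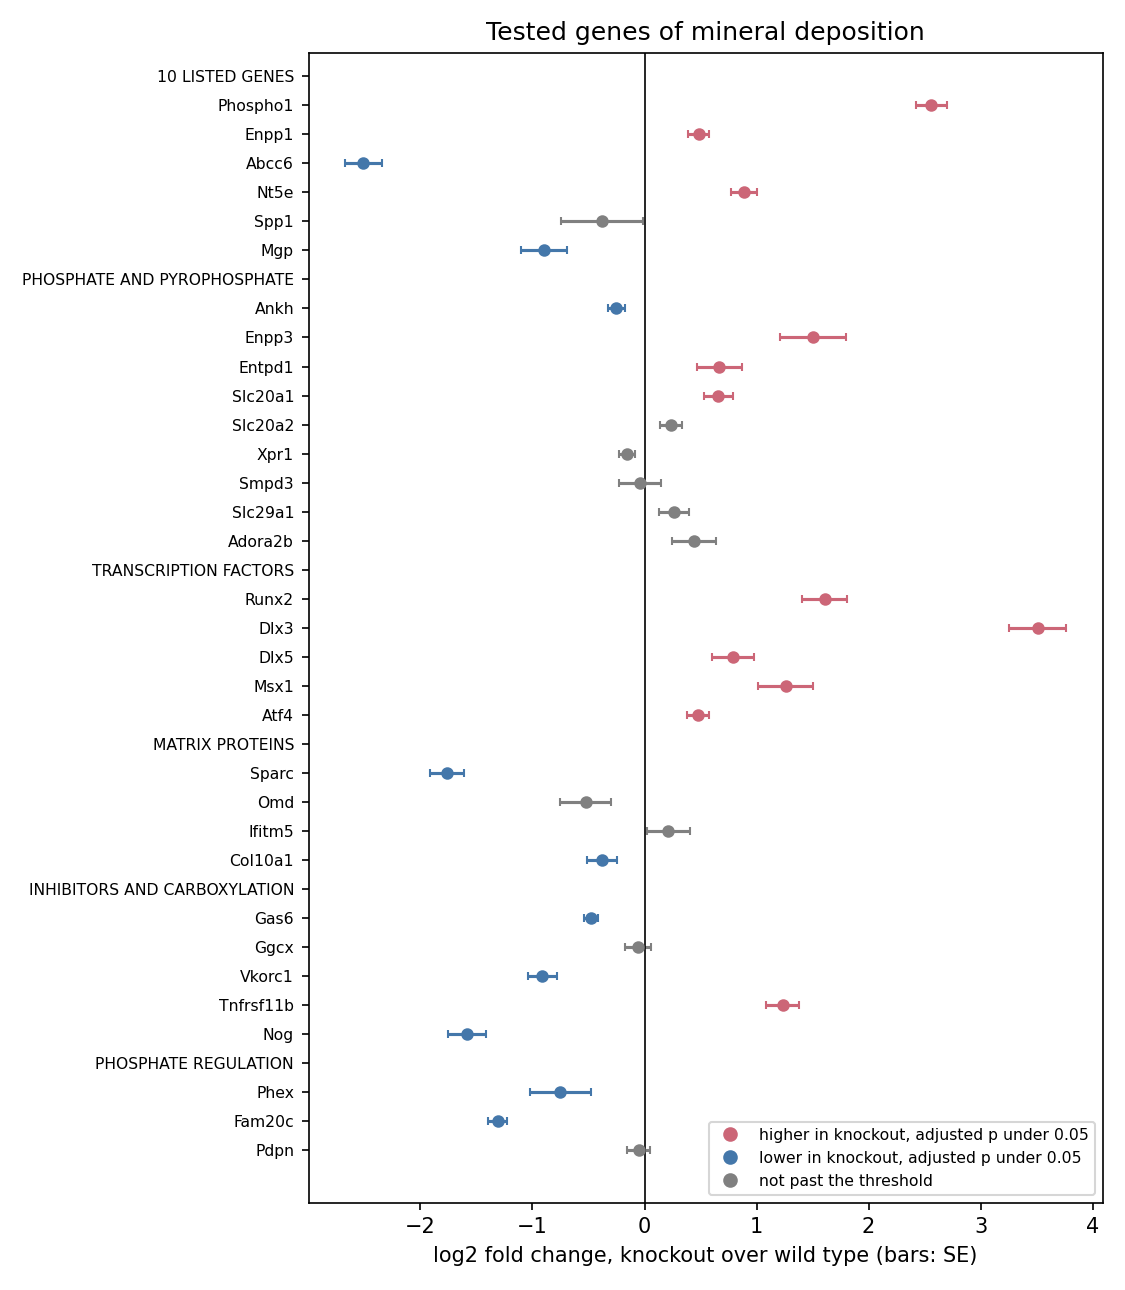
Log2 fold change of KO over WT (x, bars are SE) for the 6 tested listed genes and the other tested mineral genes, except 1 that is not reported, grouped by role; red marks genes higher and blue genes lower in the KO at an adjusted p under 0.05, grey the rest. Bone transcription factors lie to the right of 0, and matrix, carboxylation and phosphate-regulation genes lie mostly to the left.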

How the data were processed

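Counts per gene were analysed for 8 WT and 8 KO libraries of tail tendon fascicles, grouped by the genotype in their titles. The deposited values are whole-number counts, in a column called matchCounts per the file headers, with no normalisation. The submitters' processing notes name kallisto, featureCounts and the build GRCm39, with no role or order. Annotation and use of strand are not given in the sources used here. Of 25719 identifiers, 25614 matched a symbol. Exon lengths and overlaps come from GENCODE M21 (GRCm38), so positions are given only for the RefSeq promoter windows, on GRCm38.p6. Nothing in the labels says whether libraries are separate animals, so p-values measure the spread between these libraries. No 2 libraries were repeats of each other (lowest chi-square per degree of freedom 6.56).

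The test was edgeR 4.0.16 (R 4.3.3) with TMM, the default expression filter, genotype as the only term and robust quasi-likelihood fitting, two-sided, with Benjamini-Hochberg adjustment over 14803 genes. It was checked on simulated counts. Log2 CPM used a prior count of 2. Alternatives were DESeq2 1.42.0 (size factors, Wald test), limma 3.58.1 (voom), total counts, TMM without the 20 most abundant genes, other filters, a replicate block, a muscle score or Y-linked level as covariate, each library left out, and, added after the data were seen, removal of 4 libraries high in Bop1 or of 4 with a muscle score over 7 (mean log2 CPM of 10 markers). Genes were named by rule: the 10 listed, up to 4 called per group, the 3 closest in pattern; others were chosen after their values were seen. In the lists, 1 gene is counted but not reported here. The listed genes and all gene lists were chosen with earlier results of these data known.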

Additional observations from a re-analysis of the deposited data

Results flagged for a closer look

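In 38 checks of 8 libraries each, an end value lay far from its neighbour in 4. For normally spread values about 1 in 20 such checks, or 1.90, would do so by chance. That rate does not hold for Alpl, Ibsp, Sp7 and Dmp1, whose CPM rest on few or no counts. The WT group of Dmp1, all at 0, is among the checks and could not be flagged. Enpp1 was highest in KO library 6, at 7.04 log2 CPM, where the next KO library had 6.68. Ibsp was highest in KO library 4, at 0.562 CPM (7 counts), where the next had 0.170 CPM. The summed mural markers were lowest in WT library 8, at 7.70 log2 CPM against 8.00 in the next. The summed tenocyte markers, which type I collagen dominates, were lowest in WT library 3, at 16.998 log2 CPM against 17.8 in the next; the same library had the highest Spp1 and the lowest Nt5e of the WT.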

How the results depend on the processing

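The 6 tested listed genes kept their direction and their side of the threshold in all 168 values from 28 alternatives each. For the 5 called genes the largest adjusted p over these was 0.0184 (Mgp), and for Spp1 they ran from 0.127 to 0.843. With the replicate number as a block, log2 fold changes were 2.56 for Phospho1, 0.48 for Enpp1, 0.89 for Nt5e, -2.53 for Abcc6, -0.93 for Mgp and -0.54 for Spp1. The r of same-numbered libraries ran from -0.40 to 0.39 and was over 0.1 in 3 of 8. Of 8 KO libraries, 1 was closest to the WT library of its number. These values cannot settle whether the numbers pair the libraries, which the labels do not say. With the block the SE was lower for Phospho1 (0.0901 against 0.138), Enpp1 (0.0584 against 0.0929), Mgp (0.133 against 0.205) and Abcc6 (0.148 against 0.165). It was higher for Nt5e (0.146 against 0.119) and Spp1 (0.430 against 0.369). On total counts 8270 genes were higher and 1415 lower, against 3792 and 3359, so 85.4% of calls were higher against 53.0%. On that scale Ankh turned to 0.059, Xpr1 to 0.15, Smpd3 to 0.26, Ggcx to 0.24 and Pdpn to 0.25; for Pdpn alone of these the adjusted p was under 0.05 (0.0431). Smpd3 also turned with the muscle score as covariate (0.052) and with a library left out (range -0.16 to 0.030), and Ggcx without the libraries rich in muscle (0.031); none of these was called. The cause was not tested. Without a filter Alpl and Dmp1 were called as well, giving 7 listed genes. Depth limits what can be said of Alpl, Ibsp, Sp7 and Dmp1, and floors cover counting error only.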
